A study of Mus musculus with 10 samples.

Results

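The genes described here are the nuclear genes for mitochondrial complexes II, III, IV and V, the part of the respiratory chain beyond complex I together with the ATP synthase. Members were taken by symbol: names starting with Sdha, Sdhb, Sdhc or Sdhd, with Uqcr, with Cox4 to Cox8 or with Atp5, plus Cyc1 and Cycs. A probe set had to name exactly 1 gene, and the brightest probe set stood for a gene. The rule found 52 genes among 19938 tested: 8 of complex II, 10 of complex III with its electron carrier cytochrome c, 17 of complex IV and 17 of complex V. The 4 Sdhaf genes, which encode assembly factors and not subunits, fell under the rule by name and were kept. Cox7c was left out because its 3 probe sets are shared with other genes, and the subunits encoded in mitochondrial DNA are not covered by the rule. Symbols are RefSeq names where the array annotation could be matched to RefSeq, and the ATP synthase genes carry names starting with Atp5.

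The study asked which transcripts depend on Lkb1 (gene Stk11), a kinase upstream of AMPK, in the developing peripheral nervous system. Dorsal root ganglia (DRGs) were taken from E13.5 embryos, and each of the 10 samples was RNA of DRGs from 2 embryos on 1 Affymetrix mouse gene array. In the 5 Lkb1 KO pools, a floxed Lkb1 allele had been removed by Wnt1-Cre, which is active in the neural crest that gives rise to DRG neurons and glia, and also in midbrain and dorsal neural tube. The 5 WT pools came from littermates on the same mixed genetic background, and the sources read here leave unstated whether these carried Cre or a floxed allele. Cells of other origin in the ganglion, such as endothelial and blood cells, are not targeted by this Cre, and whole ganglia were profiled although the series speaks of sensory neurons. Fewer cells of a type and less RNA per cell cannot be told apart in such bulk samples.

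Complex II (succinate dehydrogenase) oxidises succinate in the tricarboxylic acid cycle and hands the electrons to coenzyme Q. Complex III passes them from coenzyme Q to cytochrome c, complex IV (cytochrome c oxidase) delivers them to oxygen, and complex V makes ATP from the proton gradient that complexes I, III and IV build. Growing sensory axons draw much of their ATP from this system. Complex II is encoded in the nucleus alone, whereas complexes III, IV and V combine nuclear subunits with others from mitochondrial DNA, and several complex IV subunits exist as a ubiquitous form and a form of heart, muscle, lung or testis.

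All values below are log2 levels as normalised by the authors, and a log2 fold change is Lkb1 KO minus WT from limma, with p adjusted over all 19938 genes by the Benjamini-Hochberg method. The medians of the 10 arrays lay within 0.069 of each other. Stk11 itself was 8.70 ± 0.22 in WT and 7.78 ± 0.11 in Lkb1 KO (SD, n = 5 each), a log2 fold change of -0.92 (adjusted p = 1.15e-04), as the labels require. Across the table, 496 genes rose and 275 fell at an adjusted p under 0.05, and 1280 passed when the replicate number was used as a block. Of the sensory neuron markers, 18 of 20 were measured, with list means of 10.44 to 10.59 in WT and 10.30 to 10.42 in Lkb1 KO, so the labelled tissue was present in all 10 pools. Of these 18 markers, Isl1, Isl2, Prrxl1 and Elavl4 fell, while 10 of 15 fibroblast and 13 of 17 proliferation genes rose.

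None of the 52 complex II to V genes passed the test in either direction. The share of all genes that passed was 3.87%, 2.49% upwards and 1.38% downwards. The 0 calls held at an adjusted p under 0.01, where 1.57% of genes passed, in a per-gene analysis of variance, where 1.94% passed, with the replicate block, where 6.42% passed, and in each of the other alternatives tried. At an unadjusted p under 0.05, 0 members were higher and 3 lower (Sdhaf3, Cox7a2l and Cox6b1), where 7.51% and 7.77% of all genes were. That count of 3 moved when single pools were left out. It was 0 without WT pool 3 or Lkb1 KO pool 3. Without WT pool 2, WT pool 4 or Lkb1 KO pool 5 it was 1. It was 2 without WT pool 1, Lkb1 KO pool 2 or Lkb1 KO pool 4. Without WT pool 5 it was 4, and without Lkb1 KO pool 1 it was 6. Sdhaf3 was among the lower members in every one of these fits with a count above 0. The count of higher members was 1 without WT pool 2 (Cox7a1), WT pool 3 or Lkb1 KO pool 3 (Cox4i2 in both) and 2 without Lkb1 KO pool 5 (Cox4i2 and Cox6a2). Under cyclic loess scaling 1 member was lower, Sdhaf3. In no member did the 5 Lkb1 KO pools lie entirely above or below the 5 WT pools, a separation seen in 5.34% of all genes (3.09% higher, 2.24% lower). The smallest p that the exact permutation test can give with 5 against 5 pools is 0.00794, which is the value a full separation would have reached. Read by same-numbered pairs of pools, 4 of 52 members (Sdhaf3, Cox7a2l, Cox5b and Atp5a1) were lower in Lkb1 KO in all 5 pairs and 0 were higher in all 5, as were 9.69% and 8.54% of all genes.

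The differences were small as well as below the threshold. Log2 fold changes ran from -0.15 for Sdhaf4 to 0.15 for Cox6a2, which is at most 1.11-fold in either direction, against at most 7.47-fold over all genes. Of the members, 42 of 52 (80.8%) differed by under 5% upwards or the matching factor downwards, and 50 of 52 (96.2%) by under 1.1-fold, as did 66.2% and 87.5% of all genes. The plot of the distribution of fold changes shows the members inside the bulk of the genes. The median log2 fold change was -0.013 over the 52 members and -0.0017 over all genes. Over the genes above the dimmest 30%, the median was -0.013, and 50 of the 52 members belong to these brighter genes. Estimates below 0 numbered 32 of 52 (61.5%), against 50.9% of all genes and 56.4% of the brighter ones, and under cyclic loess scaling the members split 26 to 26.

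**Figure D1:**
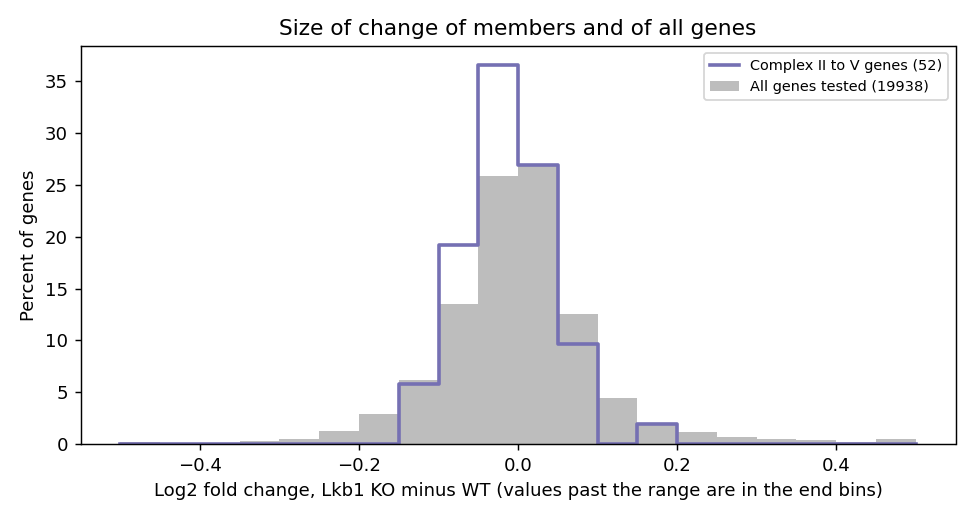
Distribution of log2 fold changes (Lkb1 KO minus WT, horizontal axis) as a percent of genes (vertical axis), for the 52 complex II to V genes (line) and all 19938 genes tested (grey bars). Members fill the bins from -0.15 to 0.1, with Cox6a2 in the bin from 0.15 to 0.2, while values of other genes continue to the end bins, which also hold values past the axis.

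The confidence intervals give the precision of each gene's estimate in these bulk, normalised levels. They set no bound on a difference within a single cell type or on one that normalisation removed. The 95% confidence interval of the log2 fold change stayed within 0.32 of 0 on the log2 scale for 50 of 52 members (96.2%, all genes 91.0%) and within 1.5-fold for all 52 (all genes 98.6%). The exceptions at the first bound were Sdhaf4, whose interval reached 1.26-fold lower, and Cox6a2, whose interval reached 1.26-fold higher. For complex V no bound lay beyond 1.12-fold, and for complex III none beyond 1.17-fold. The SD between pools of 1 genotype had a median of 0.067 over the members and 0.081 over all genes. In the plot of fold changes by complex, the intervals of most genes cross 0.

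**Figure D2:**
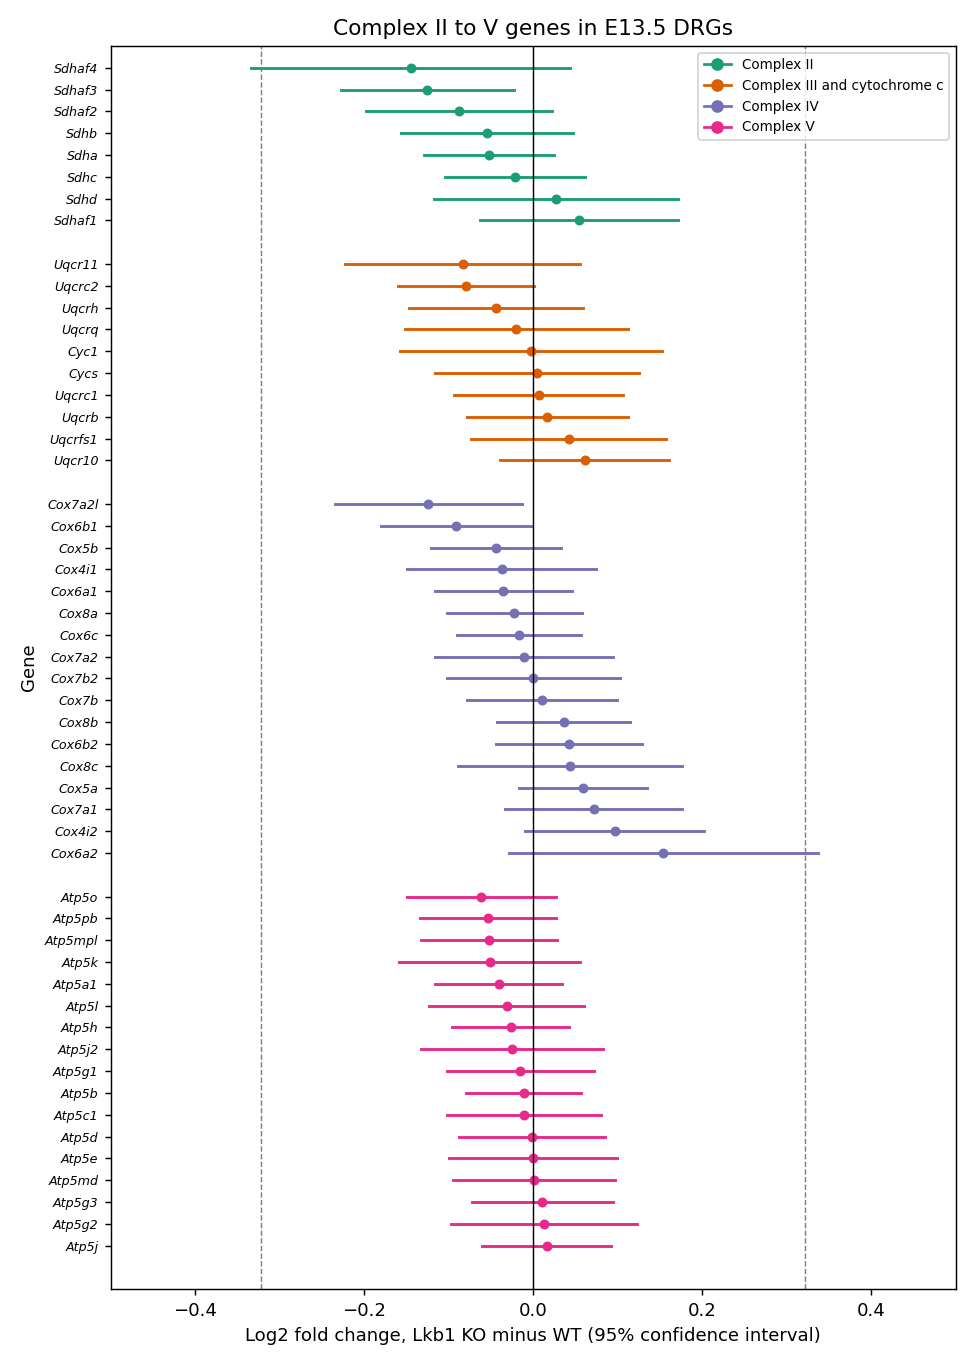
Log2 fold change (Lkb1 KO minus WT, horizontal axis) of each of the 52 genes (vertical axis) with its 95% confidence interval from limma, coloured by complex, 5 pools per genotype. Dashed lines mark 0.32 on the log2 scale in either direction, and the intervals of Sdhaf4 and Cox6a2 cross them.

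Complex II had 0 of 8 genes called, 6 of 8 estimates below 0 and a median log2 fold change of -0.054, or -0.034 under cyclic loess scaling. The median was -0.037 over its 4 subunits and -0.11 over its 4 assembly factors. Among its 4 subunits, Sdha, the flavoprotein that oxidises succinate, was 10.30, 10.34, 10.32, 10.30 and 10.39 in WT pools 1 to 5 and 10.32, 10.29, 10.28, 10.20 and 10.28 in Lkb1 KO pools 1 to 5. The groups overlapped, with WT pool 5 highest and Lkb1 KO pool 4 lowest, and the log2 fold change was -0.053 (SE 0.036, adjusted p = 0.561). The iron-sulphur subunit Sdhb measured 9.77 ± 0.083 in WT and 9.72 ± 0.060 in Lkb1 KO (SD, n = 5 each), a log2 fold change of -0.055 (95% interval -0.16 to 0.047). The 2 membrane anchors lay to either side of 0, Sdhc at -0.022 and Sdhd at 0.027. For Sdhd the sign turned to -0.029 without WT pool 5, the lowest of the WT pools at 9.19.

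Of the 4 assembly factors of complex II, Sdhaf2, Sdhaf3 and Sdhaf4 had estimates farther from 0 than any of its subunits. Sdhaf3, which helps mature the iron-sulphur subunit, had the lowest adjusted p of all members. Its WT pools measured 8.55, 8.56, 8.65, 8.52 and 8.39, and its Lkb1 KO pools 8.45, 8.45, 8.36, 8.43 and 8.37. The first 4 WT pools lay above every Lkb1 KO pool and WT pool 5 lay among them. The log2 fold change was -0.13 (SE 0.047, 95% interval -0.23 to -0.022, adjusted p = 0.210; exact two-sided permutation p = 0.0317). Without WT pool 5 it was -0.16 with an adjusted p of 0.0522, the lowest value that any member reached under any alternative tried. Lkb1 KO lay below the WT pool of the same number in all 5 pairs, and the adjusted p with the replicate block was 0.146. Sdhaf4, which acts on the flavoprotein, measured 6.02 ± 0.16 in WT and 5.88 ± 0.17 in Lkb1 KO (SD, n = 5 each), with a log2 fold change of -0.15 (adjusted p = 0.495). A second, dimmer probe set of Sdhaf4 gave 0.022. Sdhaf2, which takes part in attaching the flavin, stood at -0.088 (adjusted p = 0.477), and Sdhaf1, another factor of the iron-sulphur subunit, at 0.054 (adjusted p = 0.727).

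Complex III with cytochrome c had 0 of 10 genes called, 5 of 10 estimates below 0 and a median log2 fold change of 0.00053. Under cyclic loess scaling 3 of 10 were below 0 and the median was 0.018. Uqcrc2, a core protein on the matrix side, had the lowest adjusted p of this group. Its values were 11.40, 11.42, 11.42, 11.38 and 11.38 in WT and 11.41, 11.35, 11.28, 11.26 and 11.31 in Lkb1 KO. Lkb1 KO pool 1 stood within the WT range, while Lkb1 KO pools 2 to 5 lay below it. The log2 fold change was -0.079 (SE 0.037, adjusted p = 0.337; exact two-sided permutation p = 0.0317), and -0.10 without Lkb1 KO pool 1 (adjusted p = 0.158). The partner core protein Uqcrc1 gave 0.0064, and the Rieske iron-sulphur protein Uqcrfs1 gave 0.042 (adjusted p = 0.792).

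Cyc1, the cytochrome c1 that passes electrons on to cytochrome c, was 10.44, 10.38, 10.44, 10.41 and 10.03 in WT and 10.37, 10.33, 10.41, 10.25 and 10.33 in Lkb1 KO. WT pool 5 stood apart from the other 4 WT pools and below every Lkb1 KO pool. With it, the log2 fold change was -0.0029 and its 95% interval ran -0.16 to 0.15; without it, the value was -0.080 (adjusted p = 0.359). Cycs, cytochrome c itself, measured 11.42 ± 0.074 in WT and 11.43 ± 0.11 in Lkb1 KO (SD, n = 5 each), a log2 fold change of 0.0040. Of the small subunits, Uqcr10 had the highest estimate at 0.061 (adjusted p = 0.623) and Uqcr11 the lowest at -0.083 (adjusted p = 0.628). The second probe set of Uqcr11 gave -0.21, the most negative value of any member probe set. Its SE of 0.14 was also the largest of any (adjusted p = 0.545 in limma with every probe set tested on its own). Uqcrh, the hinge protein that supports the docking of cytochrome c1 and c, stood at -0.044, Uqcrq at -0.020 and Uqcrb at 0.016.

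Complex IV had 0 of 17 genes called, 8 of 17 estimates below 0 and a median log2 fold change of 0.00023. Cox7a2l is a relative of subunit 7a that takes part in joining complexes III and IV into supercomplexes. It was 8.84, 8.85, 8.86, 8.90 and 8.75 in WT and 8.83, 8.77, 8.59, 8.77 and 8.63 in Lkb1 KO. Lkb1 KO pools 3 and 5 were the lowest, and Lkb1 KO pools 1, 2 and 4 lay above WT pool 5, so the groups overlapped. The log2 fold change was -0.12 (SE 0.051, 95% interval -0.23 to -0.014, adjusted p = 0.255; exact two-sided permutation p = 0.0476). Its second probe set gave -0.11.

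Cox6b1, a subunit on the cytochrome c side of the enzyme, was 11.60, 11.54, 11.63, 11.58 and 11.43 in WT and 11.49, 11.46, 11.44, 11.47 and 11.47 in Lkb1 KO. The first 4 WT pools lay above every Lkb1 KO pool, and WT pool 5 lay below them all. The log2 fold change was -0.091 (SE 0.041, adjusted p = 0.316; exact two-sided permutation p = 0.0476) and -0.12 without WT pool 5 (adjusted p = 0.0822). The remaining ubiquitous subunits lay closer to 0. Cox4i1, the common form of the regulatory subunit 4, stood at -0.037 (95% interval -0.15 to 0.075). Cox5a and Cox5b, which have no second form in mouse, stood at 0.059 and -0.044. Cox6a1 stood at -0.036, Cox6c at -0.017, Cox7a2 at -0.011, Cox7b, which is X-linked, at 0.010 and Cox8a at -0.022.

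**Figure D3:**
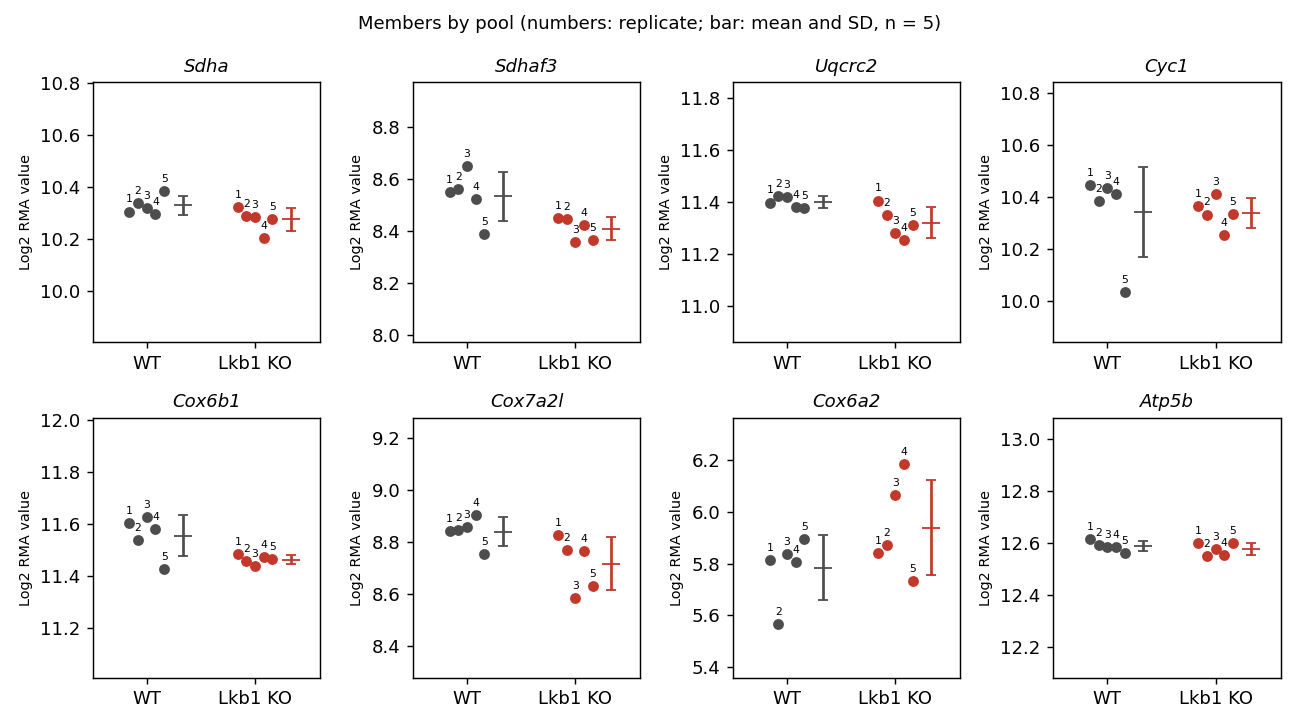
Log2 level (vertical axis) of 8 members in each of the 5 WT and 5 Lkb1 KO pools, with the replicate number above each point and the mean and SD (n = 5) to the right of each group. Every panel spans 1 log2 unit, and the groups overlap in each, with WT pool 5 apart from the other WT pools for Cyc1 and Cox6b1.

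The tissue-restricted forms of complex IV subunits had estimates above 0, also under both other scalings for Cox4i2, Cox6a2, Cox6b2, Cox7a1, Cox8b and Cox8c. Apart from Cox7a1 at 7.52, their mean levels lay between 4.82 (Cox8b) and 5.93 (Cox6b2), under the all-gene median of 6.73. Estimates below 0 made up 50.9% of all genes and 56.4% of those above the dimmest 30%. All restricted forms but Cox8b and Cox8c were among these brighter genes, and the part of level in their estimates was not tested. Cox6a2, the heart and muscle form of subunit 6a, was 5.81, 5.57, 5.84, 5.81 and 5.89 in WT and 5.84, 5.87, 6.06, 6.18 and 5.73 in Lkb1 KO. Lkb1 KO pools 3 and 4 were the highest, WT pool 2 was the lowest, and the rest lay close together. The log2 fold change was 0.15 (SE 0.084, 95% interval -0.029 to 0.34, adjusted p = 0.439). Cox4i2, the form known from lung, measured 5.67 ± 0.046 in WT and 5.77 ± 0.10 in Lkb1 KO (SD, n = 5 each), a log2 fold change of 0.10 (adjusted p = 0.389). Cox7a1, the heart and muscle form of subunit 7a, stood at 0.071, the testis form Cox6b2 at 0.043 and the second subunit 7b, Cox7b2, at 0.00023. Cox8b at 0.036 and Cox8c at 0.043 belonged to the dimmest 30% of genes.

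Set against its ubiquitous partner within each pool, a restricted form showed no difference between genotypes that passed the test. A pair of forms was compared by the log2 level of the restricted form minus that of the common form in each pool, and this difference was then compared between genotypes, for 6 pairs with p adjusted over the 6. The shift was 0.19 for Cox6a2 against Cox6a1, 0.13 for Cox4i2 against Cox4i1 and 0.13 for Cox6b2 against Cox6b1 (exact two-sided permutation p = 0.103, 0.103 and 0.0476, each 0.206 after adjustment). It was 0.082 for Cox7a1 against Cox7a2 and 0.058 for Cox8b against Cox8a (exact p = 0.183 each, 0.219 adjusted). For Cox7b2 against Cox7b it was -0.010 (exact p = 0.833). In WT the restricted form was the dimmer of each pair, with mean differences from -3.08 (Cox7a1) to -7.44 (Cox7b2). The part of this gap in level in the shifts was not tested.

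Skeletal muscle transcripts varied between pools beside these forms. Lkb1 KO pool 3 stood 0.79 above the average of the 10 pools over 12 skeletal muscle markers, and the other 9 pools lay between -0.17 and 0.011. In that pool Actc1, an actin of striated muscle, was 10.41, against 6.78 to 7.76 elsewhere, and none of the 12 markers, of which 6 were among the dimmest 30% of genes, passed the test. Lkb1 KO pool 3 had the highest Cox8b value, 4.92, but Lkb1 KO pool 4 had the highest Cox6a2 value and WT pool 2 and Lkb1 KO pool 4 the highest Cox7a1 values, 7.62 each. Without Lkb1 KO pool 3 the log2 fold change of Cox6a2 was 0.12 (adjusted p = 0.631), and without Lkb1 KO pool 4 it was 0.093. The mean of 3 Y-linked genes was 5.02 and 5.21 in Lkb1 KO pools 2 and 5 and 8.80 to 9.81 in the other 8 pools. With that mean as a covariate Cox6a2 stood at 0.27 (adjusted p = 0.147), and with both pools left out at 0.24 (adjusted p = 0.219). The part of muscle tissue and of embryo sex in the Cox6a2 values was not tested beyond these fits.

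Complex V had the narrowest range of the groups, with 0 of 17 genes called, log2 fold changes between -0.062 and 0.016 and a median of -0.015. Estimates below 0 numbered 13 of 17, and 9 of 17 under cyclic loess scaling, where the median was -0.00054. Atp5b, the catalytic beta subunit of the head, was 12.61, 12.59, 12.58, 12.58 and 12.56 in WT and 12.60, 12.55, 12.58, 12.55 and 12.60 in Lkb1 KO. The 10 values lay within a narrow band, and the groups overlapped almost fully. The log2 fold change was -0.011 with a 95% interval of -0.079 to 0.057. The alpha subunit Atp5a1 measured 11.69 ± 0.047 in WT and 11.65 ± 0.023 in Lkb1 KO (SD, n = 5 each), a log2 fold change of -0.041 (adjusted p = 0.665).

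In the central stalk, which turns inside the head, Atp5c1 stood at -0.011, Atp5d at -0.0017 and Atp5e at -0.00070. The c ring in the membrane is made of 1 protein that Atp5g1, Atp5g2 and Atp5g3 encode with different import sequences, and their estimates were -0.015, 0.013 and 0.011. Each was measured on a probe set that names only that gene, and signal shared between them was not tested for. In the peripheral stalk, which holds the head still, Atp5o (OSCP) was 10.67, 10.72, 10.72, 10.70 and 10.71 in WT and 10.76, 10.66, 10.61, 10.59 and 10.57 in Lkb1 KO. Lkb1 KO pool 1 was the highest of the 10, and Lkb1 KO pools 2 to 5 lay below every WT pool. Its log2 fold change of -0.062 (SE 0.041, adjusted p = 0.546) was the most negative of complex V, and without Lkb1 KO pool 1 it was -0.092 (adjusted p = 0.198). The other stalk subunits Atp5pb, Atp5h and Atp5j stood at -0.054, -0.027 and 0.016. Of the small membrane subunits, which take part in dimer formation, Atp5k stood at -0.052, Atp5mpl at -0.052, Atp5l at -0.032, Atp5j2 at -0.025 and Atp5md at 0.00090. Without WT pool 5, where Atp5j2 was 10.84, its value was -0.069 (adjusted p = 0.408).

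By pool, the members as a group took up positions that overlapped between genotypes. The mean deviation of the 52 genes from their own averages over the 10 pools was 0.0073, 0.026, 0.032, 0.0052 and -0.036 in WT pools 1 to 5 and 0.032, -0.0041, -0.015, -0.017 and -0.030 in Lkb1 KO pools 1 to 5. The lowest and the highest positions in each genotype were nearly equal, and the difference of the group means was -0.014. WT pool 5 was the lowest WT pool for 23 of the 52 members (44.2%), spread over complex II (3), III (6), IV (8) and V (6), whereas it was the lowest for 26.8% of all genes. Without it the median log2 fold change was -0.027, with 38 of 52 estimates below 0 and 0 calls. Lkb1 KO pool 5 was the lowest Lkb1 KO pool for 16 members (30.8%, all genes 20.9%). The plot of pool positions by gene list shows this overlap for each complex.

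**Figure D4:**
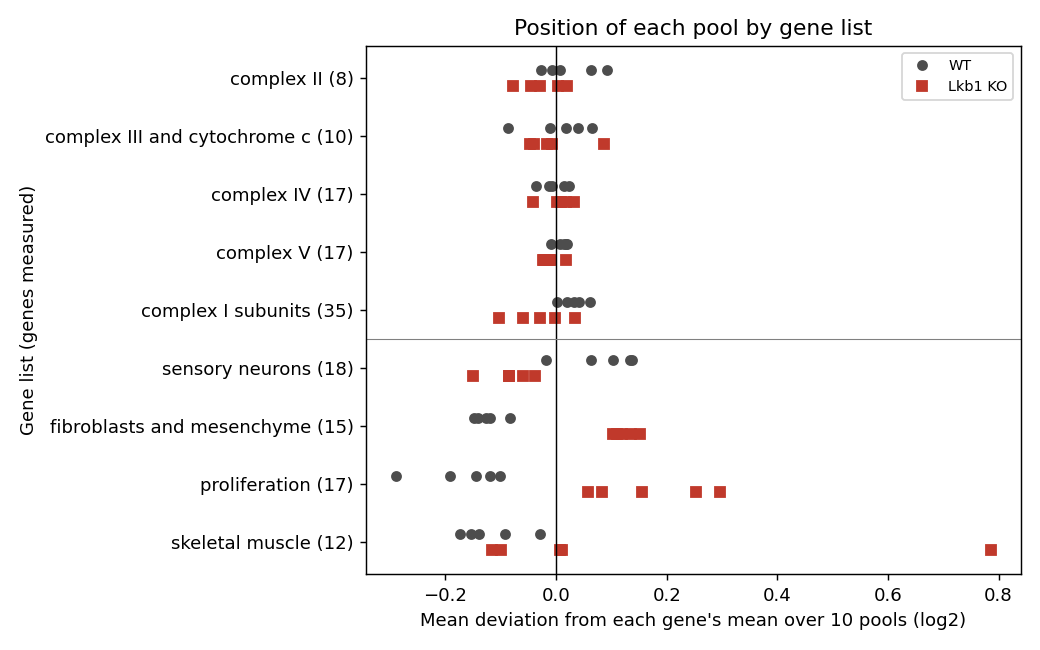
Position of each WT pool (circles) and Lkb1 KO pool (squares) as the mean deviation from each gene's average over the 10 pools (log2, horizontal axis), by gene list with its number of measured genes (vertical axis). The 4 complexes overlap between genotypes, while the sensory neuron, fibroblast and proliferation lists separate them and Lkb1 KO pool 3 stands apart for skeletal muscle.

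Cell type markers differed between the same pools. The 18 sensory neuron markers had a mean difference of -0.17 between genotypes, all 18 with estimates below 0. WT pool 5, the lowest WT pool for many members, was also the lowest WT pool for these markers, at -0.018 against 0.062 to 0.14 in the others. The fibroblast list stood 0.25 and the proliferation list 0.34 higher in Lkb1 KO. Among Schwann and satellite glia markers Dhh rose and Cdh19 fell, of 8 endothelial markers Cldn5 rose, and of 5 blood and 7 macrophage markers none passed. The part of this shift in cell markers in the members' values was not tested.

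Different probe sets of a gene were also compared. The 52 members lay on 75 probe sets, and 14 members had several, up to 6 for Atp5l. Their log2 fold changes differed by a median of 0.018 within a gene. The sign differed for Atp5h, Cycs and Sdhaf4, and the widest gap was 0.17, for Sdhaf4. With every probe set tested on its own, the lowest adjusted p of a member probe set was 0.180 and 0 passed.

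Genes that act with these complexes were counted in the same fit, in which 3.87% of all genes passed and 7.77% were lower at an unadjusted p under 0.05. Of 35 measured genes listed as subunits of complex I, the entry point of the chain, 0 passed, with a median log2 fold change of -0.053. Estimates below 0 numbered 29 (82.9%), against 50.9% of all genes and 56.4% of those above the dimmest 30%. At an unadjusted p under 0.05, 2 of the 35 were lower. That list held Ndufa4 (-0.061), which is now assigned to complex IV in spite of its name. Ndufa11, a complex I membrane subunit, had the lowest adjusted p of them (-0.18, adjusted p = 0.102). Ndufs3 came next (-0.12, adjusted p = 0.120), with all 5 Lkb1 KO pools below all 5 WT pools, as in 2.24% of all genes. Of 29 assembly factors of complexes III to V, 0 passed, the median was -0.010, and 3 were lower at an unadjusted p under 0.05. Cox19, which takes part in copper delivery to complex IV, stood at -0.15 (adjusted p = 0.242) and Uqcc1, an early factor of complex III, at -0.16 (adjusted p = 0.286). Of 10 genes of ATP export and phosphate import and 12 of coenzyme Q synthesis, 0 passed, with medians of -0.023 and -0.054, and 1 of each list was lower at an unadjusted p under 0.05.

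The calls in the surrounding pathway fell outside the complexes. Of 16 tricarboxylic acid cycle genes, Suclg2, the GTP-specific subunit of succinyl-CoA ligase and so a neighbour of complex II in the cycle, rose by 0.20 (SE 0.039, adjusted p = 0.0114), with all 5 Lkb1 KO pools above all 5 WT pools. Of 15 nuclear regulators of respiratory genes, Esrrg fell by 0.26 (SE 0.038, adjusted p = 0.00187), with all 5 Lkb1 KO pools below all 5 WT pools. Esrrg is an oestrogen-related receptor that binds many respiratory gene promoters. Its mean level was 5.73, under the all-gene median of 6.73. The medians of these lists were -0.029 and 0.0039, and the remaining genes of both did not pass. Among these, Mdh2 of the cycle also had all 5 Lkb1 KO pools below all 5 WT pools, at -0.070 (adjusted p = 0.341). Such a separation was seen in 3.09% of all genes upwards and 2.24% downwards.

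Nuclear respiratory genes are known for promoter sites of NRF1 and of ETS factors such as GABP, which is why a few of these sequences are shown beside the fold changes. The RefSeq promoter table of GRCm38.p6 gives 250 bases before and 50 after each gene start, and 40 of the 52 members had an entry there. The letters GCGCATGCG of the NRF1 core, searched on both strands, were found for 7 of 40 members (17.5%) against 2.85% of 15614 tested genes with an entry and 1.75% of all 32851 promoters of the table. The ETS core CCGGAAGT was found for 4 of 40 (10%) against 6.01% of genes and 3.89% of promoters. NRF1 letters occurred for Uqcrc1, Uqcr11, Cycs, Cox6a1, Atp5g2, Atp5k and Atp5l, and ETS letters for Uqcrh, Uqcr11, Cox8a and Atp5h, so that Uqcr11 held both and the 7 complex II genes with an entry held neither. The NRF1 core overlaps its own reverse complement by all but 1 base, so a site can be read on both strands. Bases upstream of the start are printed below from 5′ to 3′ on the gene's strand, with the motif in capitals.
Cycs, chr6:50566602-50566650, - strand: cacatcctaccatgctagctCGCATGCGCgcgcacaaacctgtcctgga
Cox6a1, chr5:115349092-115349140, - strand: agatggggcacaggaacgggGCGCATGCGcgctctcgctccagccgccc
Atp5k, chr5:108434421-108434469, - strand: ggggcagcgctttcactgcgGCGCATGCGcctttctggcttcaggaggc
Atp5g2, chr15:102671061-102671109, - strand: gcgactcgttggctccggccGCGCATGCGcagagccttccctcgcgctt
Uqcr11, chr10:80406860-80406907, - strand: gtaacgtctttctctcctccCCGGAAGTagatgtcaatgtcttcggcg
Atp5h, chr11:115419931-115419978, - strand: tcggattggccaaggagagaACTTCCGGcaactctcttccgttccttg

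In the first 4 sequences the capitals mark the NRF1 core, for Cycs as its reverse complement, and in the last 2 they mark the ETS core, for Atp5h as its reverse complement. The Cycs core begins 61 bases before the start, those of Cox6a1, Atp5k and Atp5g2 162, 50 and 42 bases before it, and the ETS cores of Uqcr11 and Atp5h 66 and 39 bases before it. Members with the NRF1 letters had a median log2 fold change of -0.032 and those with an entry but without the letters -0.011. For the ETS letters the medians were -0.035 and -0.0062. None of the 6 genes shown passed the test, with log2 fold changes of 0.0040 for Cycs, -0.036 for Cox6a1, -0.052 for Atp5k, 0.013 for Atp5g2, -0.083 for Uqcr11 and -0.027 for Atp5h. A match of letters is a description of the sequence and not of binding.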

How the data were processed

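RNA from E13.5 DRGs (250 ng per sample) was hybridised to Affymetrix Mouse Gene 1.0 ST arrays, 1 array for each of 5 Lkb1 KO and 5 WT samples, and each sample pooled ganglia of 2 embryos. The deposited values are log2 levels for 35556 probe sets, which the authors background-corrected, quantile-normalized and summarised by RMA (Partek 6.6, per the submitters' processing notes). No source read here names the genome build of the probe annotation. RMA compresses changes of dim probe sets, and quantile normalization removes shifts common to all genes. The number of arrays limits the precision, and no scanner files were used here.

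Of the probe sets, 21789 name 1 gene, 1621 several and 12146 none in the annotation used here, and 21698 of the first were matched to RefSeq. The brightest probe set by mean over 10 arrays stood for each of 19938 genes. Genotypes were compared in R 4.3.3 with limma 3.58.1 (lmFit and eBayes, no covariate, two-sided) and Benjamini-Hochberg adjustment over all genes at 0.05, and single members by an exact permutation test over all assignments of the 10 samples. The procedure was tested on simulated data. Genes named are the 4 with the smallest p of each complex, the paralogous and core subunits, and the largest estimates in each direction. Other members are named to account for the whole group. Of the other lists only a selection is named, so some called genes and some with the smallest p are left out. The members, gene lists and pairs of forms were chosen with earlier results of these data known. Replicate numbers come from the sample titles, which do not say what a number marks; deviations from the group means of same-numbered samples correlated at 0.21 to 0.48, above 0.1 in all 5 pairs, which meets the rule set for treating equal numbers as pairs, and a block on the number was fitted as an alternative. Other alternatives changed the scaling, variance model, array weights, filter on dim genes, use of probe sets, a Y-linked covariate and the pools included. Protein sequences were not used here.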

Additional observations from a re-analysis of the deposited data

Results flagged for a closer look

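Among the 104 sets of 5 pools formed by 52 members in 2 genotypes, 5 held a pool far from the other 4, and this rule flags about 1 in 20 sets by chance. In 4 of the 5 the pool was WT pool 5. There, Cyc1 was 10.03, against 10.38 to 10.44 in the other WT pools. Cox7a2, the common form of subunit 7a, was 10.42 in that pool, against 10.57 to 10.64. Atp5d, of the central stalk, was 12.09, against 12.17 to 12.20. Atp5j2, a membrane subunit of complex V, was 10.84, against 11.05 to 11.07. Cox6a2 was 5.57 in WT pool 2, against 5.81 to 5.89. Without WT pool 5, the log2 fold change was -0.080 for Cyc1, -0.048 for Cox7a2, -0.021 for Atp5d and -0.069 for Atp5j2, and without WT pool 2 it was 0.10 for Cox6a2, none of them past the threshold in limma (adjusted p = 0.359, 0.650, 0.851, 0.408 and 0.716).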

How the results depend on the processing

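No complex II to V gene was called under any of the 21 alternative settings or at an adjusted p under 0.01, and the lowest adjusted p of a member over all of them was 0.0522 (Sdhaf3 without WT pool 5). The log2 fold changes of members stayed between -0.21 and 0.27, and 26 of the 37 members named by rule kept 1 sign throughout. The median for complex V was -0.00054 under cyclic loess. Leaving out 1 replicate at a time moved the median log2 fold changes within -0.027 to -0.0095 for all members, -0.068 to -0.036 for complex II, -0.033 to 0.014 for complex III, -0.012 to 0.012 for complex IV and -0.028 to -0.010 for complex V. The number of genes called over the whole table was 387 in the per-gene analysis of variance, 1280 with the replicate block, 475 with the Y-linked covariate and 459 without Lkb1 KO pools 2 and 5, an alternative chosen after seeing the data. Leaving out 1 replicate at a time gave 485 (without WT pool 4) to 834 genes, with 504 without WT pool 2 and 490 without WT pool 3. The replicate block changed no member's call (lowest adjusted p = 0.145, Cox7a2l). The number of arrays sets the width of the 95% intervals, and RMA compresses changes of dim genes such as Cox8b and Cox8c.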
